A study of Saccharomyces cerevisiae with 3 samples.

Results

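Yeast chooses its nitrogen source through a small set of GATA factors, and the 10 genes described here are these factors and a group of the genes they control. They were chosen by name: the GATA factor genes GLN3, GAT1, DAL80 and GZF3, the permease genes GAP1, DAL5 and DUR3, and the allantoin breakdown genes DAL1, DAL2 and DAL3. All 10 had a value on at least 2 of the 3 arrays, as did 5479 genes in all. Both strains were of the W303-1A background with WAR1 under control of the GAL1 promoter, which galactose switches on, 1 strain making War1K762R, a form of the weak acid stress activator named for an exchange of lysine for arginine, and the other making War1. Cultures grew at 30 °C in rich medium with 2% raffinose to an OD600 of 0.8, were given 2% galactose and were harvested 1 h later, per the labels' protocols. No acid and no change of nitrogen source is named there. Each of the 3 two-colour arrays set 1 culture with War1K762R against 1 with War1, and the design text calls the 3 arrays biological repeats. War1K762R was labelled with Cy5 on replicates 1 and 2 and with Cy3 on replicate 3, per the source names of the channels. On replicates 1 and 2 a treatment note for the channel in Cy3 also gives the mutant, against that channel's source name, and was set aside here.

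With ammonium, glutamine or a rich mixture of amino acids at hand, yeast keeps the genes for poorer nitrogen sources at a low level, which is known as nitrogen catabolite repression. The cytoplasmic protein Ure2 and TOR kinase signalling then hold the activators Gln3 and Gat1 out of the nucleus. When nitrogen is poor these activators bind GATA sites in front of genes for permeases and breakdown enzymes, and Dal80 and Gzf3 bind the same kind of site and repress. Allantoin, a purine breakdown product, is taken up and cut stepwise to urea and glyoxylate by the products of the DAL genes, many of which lie side by side in the genome.

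Values are log2 ratios of War1K762R over War1, with each array's median spot at 0. That direction is likely but not certain, since it rests on the source names, which the treatment note contradicts for replicates 1 and 2, and assumes that the scanner divided Cy5 by Cy3, which no label says. Had it divided the other way, every sign below would turn. A ratio says nothing of a gene's level, and whether these genes were expressed at all in the rich medium cannot be read from it. Values were present on 12277, 12112 and 7367 of 13056 spots in replicates 1, 2 and 3. The 20 spots of the 10 genes all had values on replicates 1 and 2, but only 12 did on replicate 3. DAL1, DAL2, DAL5 and DUR3 had none there, so for these 4 genes strain and dye cannot be told apart. Genes without replicate 3 lay lower on the other arrays than the rest: the medians of 1896 such genes were -0.15 and -0.12 in replicates 1 and 2, against 0.07 and 0.06 for the 3579 genes on all 3 arrays.

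None of the 10 genes passed the test, the lowest adjusted p being 0.0550 for DAL80 (limma, Benjamini-Hochberg adjustment over all 5479 genes, threshold 0.05). At an unadjusted p under 0.05, 1 of the 10 was higher with War1K762R and 0 were lower. Over all genes 67 passed as higher and 50 as lower, which is 1.22% and 0.913%, and at an unadjusted p under 0.05 the shares were 9.13% higher and 7.76% lower. Of the 10 mean ratios 5 lay above 0 and 5 below, with a median of 0.02 against 0.00 over all genes tested. The range ran from -0.34 for DAL2 to 0.56 for DAL80. On every array that measured them, 3 genes were positive (GLN3, DAL80 and GAP1) and 2 negative (DAL1 and DAL2), where 21.5% and 26.3% of all genes were so. The 3 positive genes were measured on all 3 arrays, where 24.7% of such genes were positive throughout. The 2 negative genes were measured on replicates 1 and 2 only, where 50.3% of such genes were negative on both.

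**Figure D1:**
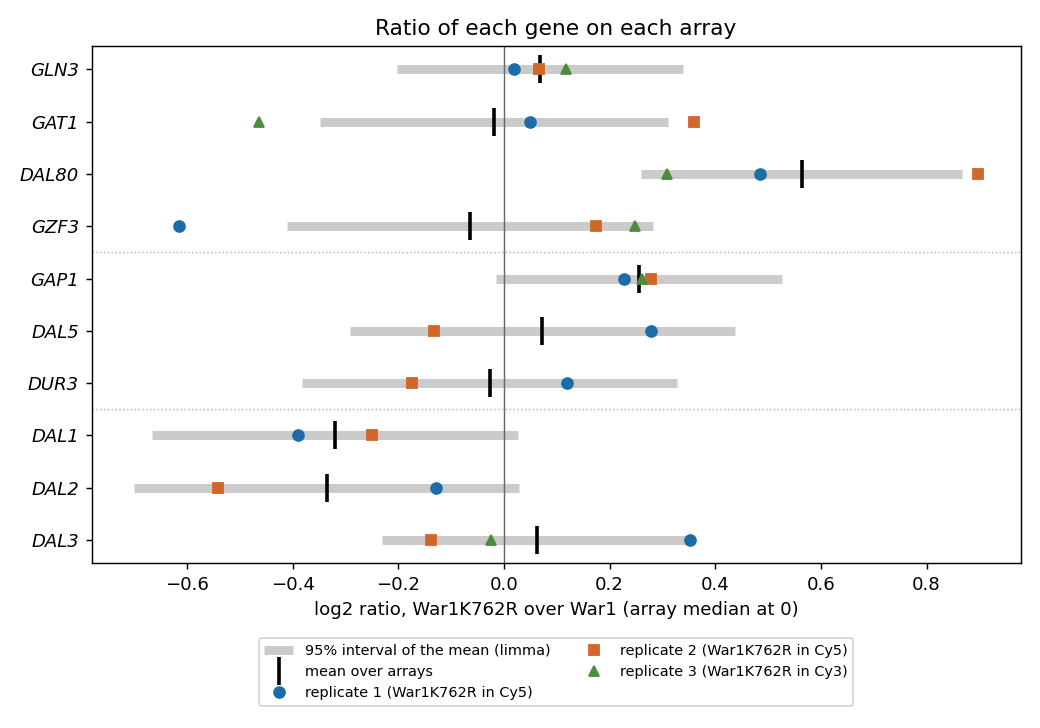
Log2 ratio of War1K762R over War1 (x axis) for each gene (rows, grouped as GATA factors, permeases and breakdown enzymes by dotted lines), with a symbol per array, a bar at the mean and the 95% limma interval of the mean in grey, not adjusted for the number of genes. DAL80 is the gene whose interval lies wholly above 0, and DAL5, DUR3, DAL1 and DAL2 have no value for replicate 3.

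Among the GATA factor genes, GLN3 (YER040W) encodes an activator held back by Ure2. Its log2 ratios were 0.02, 0.07 and 0.12 in replicates 1, 2 and 3. All 3 lay close to 0, with a mean of 0.07 ± 0.05 (SD, n = 3, limma, adjusted p = 0.827) and a 95% interval from -0.20 to 0.34. As a fold this interval runs from 0.869 to 1.26.

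GAT1 (YFL021W, also NIL1) encodes the second activator, whose own gene is under nitrogen catabolite repression. It had log2 ratios of 0.05, 0.36 and -0.46 in replicates 1, 2 and 3. The arrays disagreed in sign, and the mean of -0.02 ± 0.42 (SD, n = 3, limma, adjusted p = 0.959) turned to 0.20 without replicate 3. In replicate 3 its ratio stood at the 2.82nd percentile of all genes of that array, and in replicate 2 at the 86.4th. The 2 spots of GAT1 in replicate 3 read -0.30 and -0.63, so both were negative.

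DAL80 (YKR034W, also UGA43) encodes the repressor that is itself induced by Gln3 and Gat1 when nitrogen is poor. Its log2 ratios were 0.48, 0.90 and 0.31 in replicates 1, 2 and 3, so it was higher with War1K762R on every array. The mean was 0.56 ± 0.30 (SD, n = 3), which is 1.48-fold, with a 95% interval from 1.20- to 1.82-fold that is not adjusted for the number of genes. It missed the threshold by little (limma, unadjusted p = 0.00129, adjusted p = 0.0550). Of the 3579 genes on all 3 arrays, 71 or 1.98% had a mean at least as high. On the single arrays DAL80 stood at the 93.3rd, 98.1st and 86.9th percentiles. Its 2 spots read 0.52 and 0.45 in replicate 1, 0.88 and 0.92 in replicate 2, and 0.40 and 0.21 in replicate 3. All 6 spot values of DAL80 were above 0. DAL80 passed with centring on the genes tested (limma, adjusted p = 0.0420) and with array weights (adjusted p = 0.0358). It did not in the other 8 settings tried, where adjusted p ran from 0.0599 to 0.577.

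GZF3 (YJL110C, also DEH1 or NIL2) encodes the other repressor, a close relative of Dal80. It had log2 ratios of -0.61, 0.17 and 0.25 in replicates 1, 2 and 3. Replicate 1 stood apart, at the 2.79th percentile of its array, while the other arrays were above 0. Both spots of GZF3 in replicate 1 carried the same deposited value of -0.8836 before centring, as 36 of 5436 spot pairs of that array did. The mean of -0.06 ± 0.48 (SD, n = 3, limma, adjusted p = 0.876) became 0.21 without replicate 1. Whether the spots of DAL80 and GZF3 also bind each other's transcripts was not tested, as no probe sequences were used here.

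Set against each other within an array, DAL80 lay above the other factor genes each time. The difference of DAL80 minus GZF3 was 1.10, 0.72 and 0.06 in replicates 1, 2 and 3, with a mean of 0.63 ± 0.53 (SD, n = 3). GAT1 minus DAL80 came to -0.43, -0.54 and -0.77 with a mean of -0.58 ± 0.17, and GLN3 minus DAL80 to -0.47, -0.83 and -0.19 with a mean of -0.50 ± 0.32 (SD, n = 3 each). These differences were not tested and were described after the values had been seen. Between the activator genes, GLN3 minus GAT1 was -0.03, -0.29 and 0.58, with no common sign.

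GAP1 (YKR039W), the general amino acid permease gene, is a classic target of Gln3 and Gat1. Its log2 ratios were 0.23, 0.28 and 0.26 in replicates 1, 2 and 3. The 3 arrays lay closer together than for any other of the 10 genes, with an SD of 0.03 where the median SD over all genes tested was 0.19. The mean of 0.26 (n = 3), or 1.19-fold, did not pass (limma, adjusted p = 0.324), and its 95% interval ran from 0.990- to 1.44-fold. The evenness rests on the centring, since the array medians taken off were -0.27, 0.16 and 0.09. As deposited, the spots of GAP1 read -0.09 and 0.01 in replicate 1, against 0.39 and 0.49 in replicate 2 and 0.33 and 0.37 in replicate 3.

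DAL5 (YJR152W), the allantoate permease gene, had log2 ratios of 0.28 and -0.13 in replicates 1 and 2. Its spots in replicate 2 disagreed, at 0.12 and -0.39. DUR3 (YHL016C), the urea permease gene, had 0.12 and -0.17 in the same replicates. Neither kept a sign over its arrays, and their means of 0.07 ± 0.29 and -0.03 ± 0.21 (SD, n = 2 each) had limma adjusted p of 0.865 and 0.948. The 95% intervals of DAL5 and DUR3 ran from 0.817- to 1.35-fold and from 0.767- to 1.26-fold.

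Of the breakdown enzymes, DAL1 (YIR027C) encodes allantoinase, which opens the allantoin ring. It had log2 ratios of -0.39 and -0.25 in replicates 1 and 2. DAL2 (YIR029W), the gene of allantoicase, the next step, had -0.13 and -0.54. Both genes were negative on both arrays that measured them, with means of -0.32 ± 0.10 and -0.34 ± 0.29 (SD, n = 2 each). Neither passed (limma, adjusted p = 0.337 and 0.338). Of the 1896 genes measured on replicates 1 and 2 only, 50.3% were negative on both, and the median mean of these genes was -0.12. Among the 50 genes called lower, 48 were of this kind. The spots of DAL1 in replicate 2 read -0.54 and 0.04, a gap of 0.58. The SD of a single spot on that array was 0.17, and a gap between 2 spots varies more than 1 spot does.

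DAL3 (YIR032C) encodes ureidoglycolate lyase, an enzyme that releases urea. Its log2 ratios were 0.35, -0.14 and -0.02 in replicates 1, 2 and 3. It was high on replicate 1 only, and its mean of 0.06 ± 0.26 (SD, n = 3, limma, adjusted p = 0.855) turned to -0.08 without that array. Its 95% interval ran from 0.852- to 1.28-fold.

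**Figure D2:**
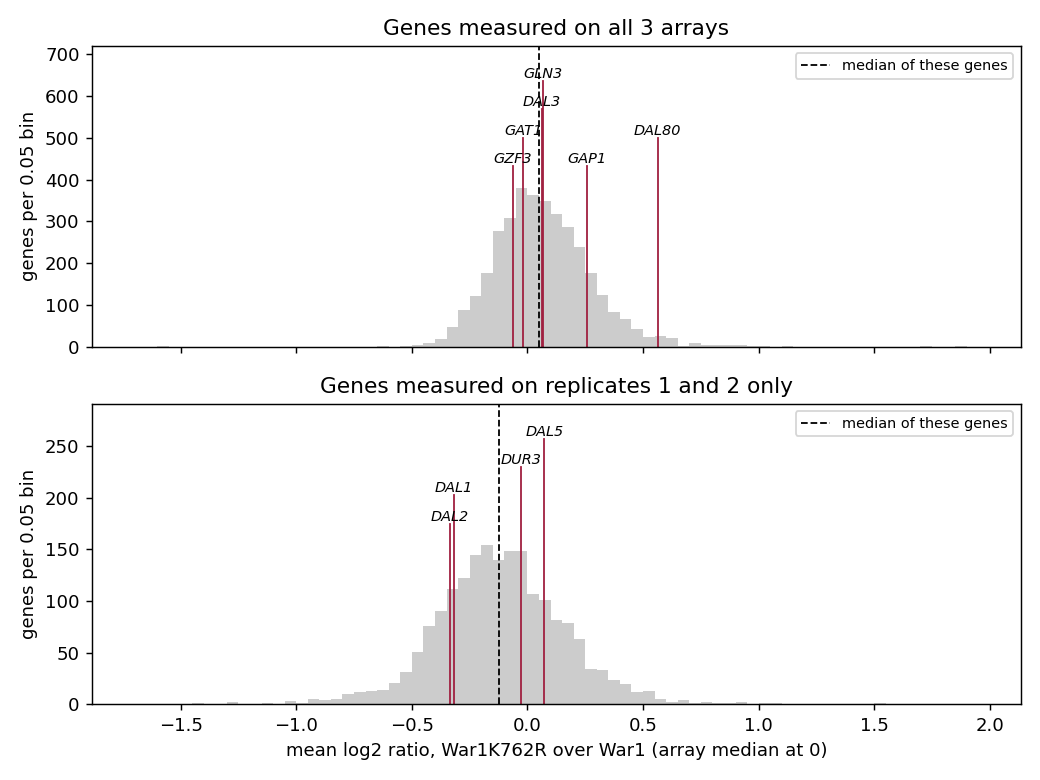
Number of genes (y axis) by mean log2 ratio of War1K762R over War1 (x axis), for genes on all 3 arrays (top) and genes on replicates 1 and 2 only (bottom), with the genes described here as red lines and the median of each distribution dashed. DAL80 at 0.56 lies in the upper tail, and DAL1 and DAL2 lie below the median of -0.12 of the genes without replicate 3.

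The allantoin genes form a block in the genome, and the R64 gene table gives the order DAL1, DAL4, DAL2, DCG1, DAL7 and DAL3. DAL4 encodes the allantoin permease, DAL7 a malate synthase that uses the glyoxylate released, and DCG1 a protein of unclear function. DAL4 had log2 ratios of -0.38 and -0.15, and DCG1 of -0.39 and -0.24, in replicates 1 and 2. The 4 neighbours DAL1, DAL4, DAL2 and DCG1 were thus negative on both arrays, and none had a value on replicate 3. Of all genes without replicate 3, 50.3% were negative on both arrays. DAL7 had 0.33, 0.10 and -0.06 in replicates 1, 2 and 3, and with DAL3 it was measured on all 3 arrays. None of the 6 genes of the block passed (limma, lowest adjusted p = 0.337). This description of the block was made after the values had been seen.

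**Figure D3:**
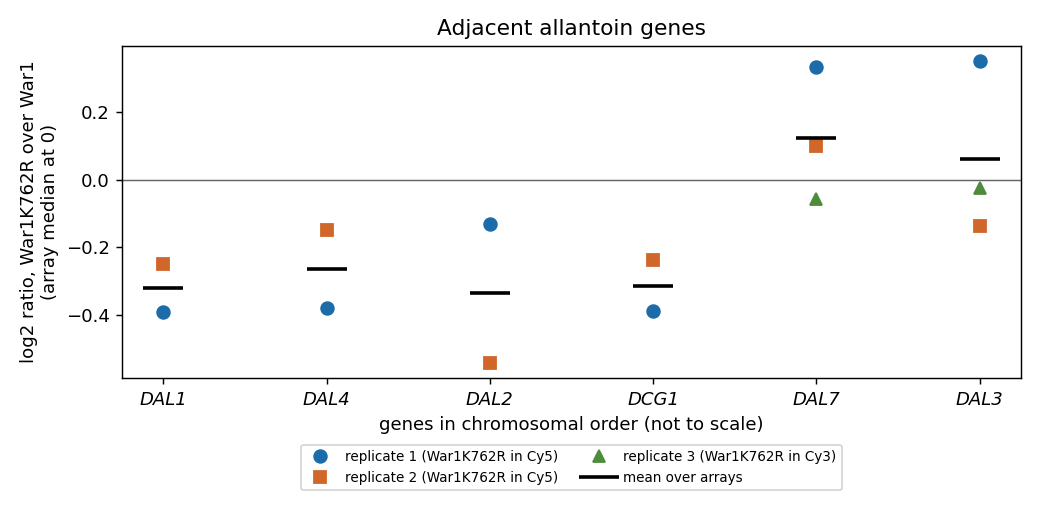
Log2 ratio of War1K762R over War1 (y axis) on each array for the 6 adjacent allantoin genes in chromosomal order (x axis, not to scale), with a bar at the mean. The first 4 genes have no value for replicate 3 and lie below 0, at means from -0.34 to -0.26, as do 50.3% of all genes without replicate 3 on both arrays, and DAL7 and DAL3 lie at 0.13 and 0.06.

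A further 54 genes of nitrogen regulation and use were listed from general knowledge, in 4 groups, with earlier results of these data known. A total of 53 were tested. Of these, 2 rose and 0 fell (limma, 16 higher and 2 lower at an unadjusted p under 0.05), both of the 2 in the group of other permeases and breakdown genes. Over all genes tested 1.22% rose and 0.913% fell, and 9.13% and 7.76% were higher and lower at an unadjusted p under 0.05. CAR1 (YPL111W), the arginase gene, had log2 ratios of 1.11, 1.41 and 0.53 and a mean of 1.02 ± 0.45 (SD, n = 3, 2.02-fold, limma, adjusted p = 0.00751). UGA1 (YGR019W), the 4-aminobutyrate transaminase gene, had 0.98, 1.03 and 0.57 and a mean of 0.86 ± 0.25 (SD, n = 3, 1.81-fold, limma, adjusted p = 0.00751). Both calls ended without replicate 1 (limma, adjusted p = 0.176 for both) and with a dye term (0.0701 for CAR1 and 0.0942 for UGA1). They also ended with the sign of replicate 3 turned (limma, adjusted p = 0.497 and 0.570), a setting against the rounding of its values described below. In these 3 settings few genes of any kind passed: 2 of 3580, 3 of 3579 and 2 of 5479, against 117 of 5479 in the main fit. The mean of CAR1 was 0.97 without replicate 1, 0.90 with a dye term and 0.66 with replicate 3 turned, and that of UGA1 was 0.80, 0.79 and 0.48 in the same settings.

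Like the other lists, that group was drawn up with earlier results of these data known, so the shares below are no independent test. It held 21 tested genes with a median of 0.35, against 0.00 over all genes. The 18 of them on all 3 arrays had a median of 0.37, against 0.05 for all genes on all 3 arrays. The array medians of the group were 0.25, 0.59 and 0.19. Of the 18 on all 3 arrays, 14 were positive on all 3, where 24.7% of all such genes were, and 1 was negative on all 3, against 13.5%. The lowest means among them were those of ASP1, the cytosolic asparaginase gene, at -0.13 ± 0.09 (limma, adjusted p = 0.645), and UGA2, the succinate semialdehyde dehydrogenase gene, at 0.08 ± 0.16 (SD, n = 3 each, adjusted p = 0.793). PUT1, the proline oxidase gene, and BAT2, a branched-chain aminotransferase gene, were picked after their values had been seen and stood near the threshold at 0.55 ± 0.28 and 0.60 ± 0.42 (SD, n = 3 each, limma, adjusted p = 0.0568 and 0.0583).

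The genes of ammonium, glutamate and glutamine metabolism had a median of 0.24 over 8 tested genes, of which 0 passed (limma, 3 higher and 0 lower at an unadjusted p under 0.05) and 6 were positive on all 3 arrays. All 8 genes were measured on all 3 arrays. Of the 3579 genes on all 3 arrays, 421 were higher and 97 lower at an unadjusted p under 0.05 (limma). Of the same 3579, 24.7% were positive on all 3, and their median mean was 0.05. Over all genes tested, 9.13% were higher and 7.76% lower at that unadjusted p. GDH1 and GDH3, which encode the NADPH-dependent glutamate dehydrogenases, had the highest means, 0.47 ± 0.36 and 0.32 ± 0.26 (SD, n = 3 each, limma, adjusted p = 0.128 and 0.253). The lowest was GLN1, the glutamine synthetase gene, at -0.28 ± 0.34 (SD, n = 3, limma, adjusted p = 0.358), followed by the glutamate synthase gene GLT1 at 0.04 ± 0.03 (adjusted p = 0.906). MEP2, the high-affinity ammonium permease gene and a GATA factor target, had a mean of 0.26 ± 0.26 (SD, n = 3, limma, adjusted p = 0.359) and was looked up after its values had been seen.

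Of the other nitrogen regulators, which include Ure2, the TOR branch and the activators of single pathways, 21 were tested and 0 passed, with a median of 0.07 (limma, 2 higher and 2 lower at an unadjusted p under 0.05, where 9.13% and 7.76% of all genes were). SIT4 and PPH22, which encode protein phosphatases of the TOR branch, had the highest means on all 3 arrays, 0.35 ± 0.25 and 0.28 ± 0.14 (SD, n = 3 each, limma, adjusted p = 0.218 and 0.286). TOR2, a TOR kinase gene, was lowest of those on all 3 arrays at -0.28 ± 0.06, and UGA3, the activator gene of 4-aminobutyrate use, had -0.05 ± 0.08 (SD, n = 3 each, limma, adjusted p = 0.280 and 0.892). URE2 and DAL82 (an activator gene of the allantoin pathway) had no value on replicate 3 and means of -0.25 ± 0.05 and -0.35 ± 0.07 (SD, n = 2 each, limma, adjusted p = 0.456 and 0.290). They were named after their values had been seen. For both genes strain and dye cannot be told apart. Genes without replicate 3 had a median mean of -0.12, and 50.3% of them were negative on both arrays. The remaining group, DAL4, DCG1 and DAL7 of the allantoin block, had a median of -0.26 and 0 genes past the threshold (limma, also 0 at an unadjusted p under 0.05).

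**Figure D4:**
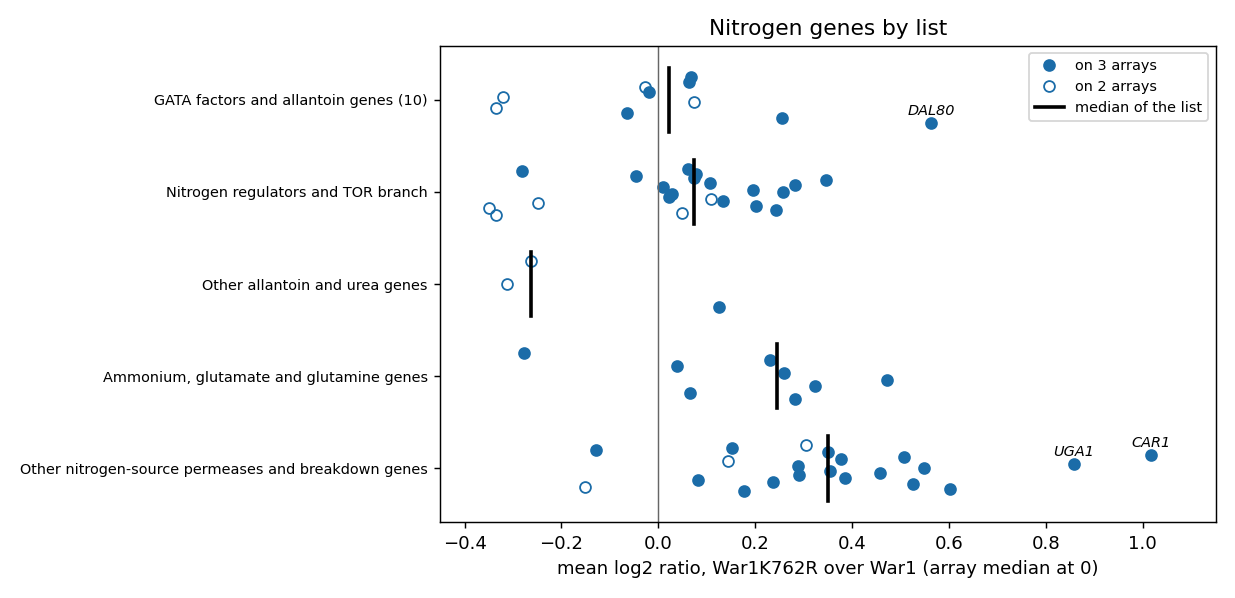
Mean log2 ratio of War1K762R over War1 (x axis) of each gene, by list (rows), filled where measured on 3 arrays and open where measured on 2, with a bar at the median of each list. CAR1 and UGA1, at 1.02 and 0.86, are the genes that passed the test. The medians run from -0.26 for the other allantoin genes to 0.35 for other permeases and breakdown genes. On all 3 arrays were 1 of 3 genes of the former list and 18 of 21 of the latter. Over the whole series, genes on all 3 arrays had a median of 0.05 and those without replicate 3 of -0.12.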

How the data were processed

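Total RNA was copied into Cy3- or Cy5-labelled cDNA and hybridised to 3 two-colour arrays, per the labels' protocols. Each spot of an array has a log2 ratio deposited by the authors. No label or header names the scanner, ratio formula, spot filter or normalization, and intensities were not used. Of values within 0.5 of 0, turned back to linear ratios, 100% were numbers of 3 decimals in replicates 1 and 2 (to within the rounding of the logarithm), but 9.70% in replicate 3, or 100% once its sign was changed. Replicate 3 was therefore taken as already turned, so that all columns run War1K762R over War1. The median over spots was taken off each array. Spots with 1 gene symbol (11146 of 13056) were averaged per gene, and genes with 2 or more arrays were tested with limma 3.58.1 in R 4.3.3 (lmFit and eBayes, mean against 0, two-sided, adjusted p under 0.05). A missing array was left out of a gene's fit. Errors are SDs between arrays, whose number limits the precision.

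The 10 genes and the lists were chosen with earlier results of these data known. Genes named from the lists were those past the threshold and, per list, the 2 highest and 2 lowest means on all 3 arrays; others are marked where they appear. DUR1,2 was not analysed here. The planned promoter motif search and the comparison of GATA zinc fingers were not run, and no sequences were used here. The fit was checked on simulated data with noise of the same SD for every gene and planted changes larger than the means of the 10 genes. That check does not show how often changes of the size seen here would be found. Alternatives were other centring, genes on all 3 arrays, single spots, a dye term, array weights, the sign of replicate 3 and leaving out each array. For single spots, each spot was tested and a gene was represented by its spot with the lowest adjusted p.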

Additional observations from a re-analysis of the deposited data

How the results depend on the processing

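Each array is itself a direct pair of 1 culture per strain, so the test of mean ratios against 0 was already paired. The arrays form 1 group, with no further pairing. Over 10 alternatives, 75 of 84 values of the 10 genes kept their sign and their side of the threshold. DAL80 alone moved past it, at 0.56 when the genes tested served for centring and 0.62 with array weights. So 1 gene of the 10 was called higher in each. Over all 5479 genes, 78 were called higher and 66 lower with that centring, and 73 and 55 with array weights. The mean of DAL80 without each array in turn ran from 0.40 to 0.69. Signs turned for means near 0: GLN3 (-0.011) and GAT1 (0.29) with replicate 3 turned once more, GZF3 (otherwise down to -0.22 with an array left out) with a dye term (0.014) and without replicate 1 (0.21), GAT1 with array weights (0.057) and without replicate 3 (0.20, with -0.21 the lowest with an array left out), and DAL3 without replicate 1 (-0.081, with 0.16 the highest). The count of the 10 genes negative on every array was 0 on all 3 arrays only and ran from 0 to 2 with an array left out. On all 3 arrays only, and without replicate 1 or 2, just 6 of the 10 genes were tested. DAL1 and DAL2 dropped out there for want of a value on replicate 3. The count positive on every array was 1 with replicate 3 turned once more. Over all genes the counts of 67 higher and 50 lower became 24 and 15 without centring, 12 and 1 on all 3 arrays only, 1 and 1 with replicate 3 turned once more, 2 and 1 with a dye term, and 13 and 11 on single spots. With an array left out they ran from 1 to 46 higher and from 1 to 34 lower. The genes tested were 3579 on all 3 arrays only and with a dye term, 3580 without replicate 1 and 3582 without replicate 2. Counts of the 53 further nitrogen genes were added after seeing the data. With centring on the genes tested, 4 were called higher (BAT2, CAR1, PUT1 and UGA1), where 78 of all 5479 genes were. The count was 0 with replicate 3 turned once more or a dye term, where 1 and 2 of all genes were higher. With an array left out it ran from 0 to 3, where from 1 to 46 of all genes were higher. The 43.6% of spots missing on replicate 3 leave 4 of the 10 genes without a dye swap.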
